A study of Mus musculus with 12 samples.

Results

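Expression of 29 genes of cholesterol synthesis and its control was followed in the tibialis anterior (TA), a muscle of the lower leg, before birth, during early growth and in young adulthood. The genes were taken by symbol from a list of the mevalonate and sterol synthesis pathway, its transcriptional control by SREBP, and sterol handling. Earlier results of these data were known when the list was chosen. All 29 were found among the 55450 genes of the count table and all 29 passed the filter on low counts, as did 19276 genes in all. They comprise 8 genes of the mevalonate arm and its prenyl branch, 11 genes of the sterol arm, 5 SREBP regulators, and 5 genes of sterol transport, storage and the LXR nuclear receptors.

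RNA-seq was done on TA muscle of wild-type (WT) mice of the 129Pas background, with 4 mice at E18.5 (embryonic day), 4 at 2 weeks and 4 at 7 weeks. No treatment or altered allele was given for any group, the sex of the mice was not given, and each library was taken as 1 mouse, as the study's methods describe. Total counts per library ran from 63018968 to 123449246, and the member with the lowest count in any library, *Fdps*, still had 17. The 6 skeletal muscle fibre markers summed to 11431 to 20938 CPM (counts scaled to library size by the TMM method) at E18.5 and to 133573 or more in every later library, so the tissue label was met at each age. The 7 adipocyte markers summed to 1987 and 2712 CPM in E18.5 replicates 3 and 4, against 233 and 180 in replicates 1 and 2. The later libraries held 311 to 486 CPM. In this sum replicates 1 and 2 were below every later library, but in the markers *Adipoq* and *Plin1* they were above every later library. Members whose change from E18.5 to a later age moved by more than 1.5-fold without E18.5 replicates 3 and 4 are also given without them.

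Cells make cholesterol from acetyl-CoA. The mevalonate arm builds isoprenoid units, which are joined to farnesyl and geranylgeranyl pyrophosphate, and the sterol arm turns farnesyl pyrophosphate into squalene, lanosterol and finally cholesterol. When membrane sterol is low, the protein SCAP carries SREBP from the endoplasmic reticulum to the Golgi, where it is cut to release a transcription factor that switches on most of these enzymes. When sterol is high, the INSIG proteins hold SCAP back, and LXR receptors, activated by oxysterols, switch on genes of sterol export.

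The promoters of 5 members are shown for the binding motifs that SREBP and its partner factor NF-Y are known for. *Hmgcs1* and *Idi1* encode enzymes whose RNA fell after birth, *Mvk* encodes an enzyme of the same arm whose RNA was not called lower, and *Insig1* and *Insig2* are paralogs whose changes differed in size and, with TMM scaling, in sign. Each runs 5′ to 3′ on the strand of the gene, from 250 bases before to 50 bases after the RefSeq start, in GRCm38.p6. Capitals mark CCAAT on either strand (ATTGG when it lies on the other one) and the sterol regulatory element core TCACNCCAC. *Hmgcs1* lies at chr13:119690101-119690400 on the plus strand, *Idi1* at chr13:8885356-8885655 on the plus strand, *Mvk* at chr5:114444019-114444318 on the plus strand, *Insig1* at chr5:28071162-28071461 on the plus strand and *Insig2* at chr1:121332540-121332839 on the minus strand.
Hmgcs1: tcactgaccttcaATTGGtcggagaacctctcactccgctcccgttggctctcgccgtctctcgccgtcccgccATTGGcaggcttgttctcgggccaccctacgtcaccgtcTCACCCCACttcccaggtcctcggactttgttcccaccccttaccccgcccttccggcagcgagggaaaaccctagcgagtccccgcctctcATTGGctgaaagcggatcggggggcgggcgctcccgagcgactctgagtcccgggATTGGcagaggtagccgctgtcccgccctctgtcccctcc
Idi1: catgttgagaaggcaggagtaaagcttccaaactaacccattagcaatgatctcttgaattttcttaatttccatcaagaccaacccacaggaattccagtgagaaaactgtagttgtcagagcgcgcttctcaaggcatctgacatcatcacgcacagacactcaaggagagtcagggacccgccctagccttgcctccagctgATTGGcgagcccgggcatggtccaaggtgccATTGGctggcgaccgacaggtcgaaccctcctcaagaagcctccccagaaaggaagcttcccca
Mvk: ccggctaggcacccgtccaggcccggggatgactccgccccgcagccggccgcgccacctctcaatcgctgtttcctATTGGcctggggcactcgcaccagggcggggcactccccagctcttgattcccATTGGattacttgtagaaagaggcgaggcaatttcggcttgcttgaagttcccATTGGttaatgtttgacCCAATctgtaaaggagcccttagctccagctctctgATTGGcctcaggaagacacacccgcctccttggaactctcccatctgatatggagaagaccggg
Insig1: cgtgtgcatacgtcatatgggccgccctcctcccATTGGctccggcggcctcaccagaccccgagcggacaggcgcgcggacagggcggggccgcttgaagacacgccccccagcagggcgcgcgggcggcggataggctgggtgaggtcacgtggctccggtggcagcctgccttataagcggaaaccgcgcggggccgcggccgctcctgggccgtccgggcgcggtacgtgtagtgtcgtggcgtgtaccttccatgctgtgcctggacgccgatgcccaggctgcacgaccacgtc
Insig2: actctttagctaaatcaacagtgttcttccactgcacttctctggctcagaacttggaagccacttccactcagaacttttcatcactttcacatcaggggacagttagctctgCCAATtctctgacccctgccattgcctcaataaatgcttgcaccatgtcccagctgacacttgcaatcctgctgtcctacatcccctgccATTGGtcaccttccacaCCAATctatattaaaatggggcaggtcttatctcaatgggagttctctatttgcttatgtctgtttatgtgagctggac

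The *Hmgcs1* promoter held 4 CCAAT boxes and the only TCACNCCAC found, which began 137 bases before the start. *Mvk* held 5 CCAAT boxes, *Insig2* 3, *Idi1* 2 and *Insig1* 1. Of the 25 members with a promoter in the RefSeq table, 20 held CCAAT on either strand, against 41.1% of 27025 genes in that table and 42.0% of the tested genes in it. Among the synthesis enzymes the count was 15 of 16. The GC box GGGCGG was present in 21 of 25 members, against 38.2% of all genes and 63.2% of the tested genes. TCACNCCAC was present in 1 of 25, against 1.44% of all genes. No marked CCAAT box overlapped the TCACNCCAC match. *Acat2*, *Scap*, *Abca1*, *Nr1h2* and *Nr1h3* were the members without CCAAT. These are letter matches in a short window, and binding was not measured. Promoters of *Fdps*, *Fdft1*, *Sqle* and *Stard4* were not analysed here.

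The first comparison asked how the pathway changed from E18.5 to 2 weeks. Most of the synthesis enzymes fell, several of them by more than 4-fold, together with *Insig1*, *Stard4* and *Soat1*, whereas *Nr1h2*, *Scap*, *Insig2* and *Mvk* were higher at 2 weeks. Of the 29 genes, 18 were lower and 4 higher at an adjusted p under 0.05 (edgeR quasi-likelihood test, Benjamini-Hochberg adjustment over all tested genes), against 34.2% of all tested genes lower and 31.5% higher. The median log2 fold change of the 29 was -0.98, against -0.09 over all tested genes. Scaling to total counts in place of TMM lowered the median of all genes by 0.93 on the log2 scale in this interval, by 0.35 from 2 to 7 weeks and by 1.28 over the whole period, and it left 1 member (*Nr1h2*) higher and 23 lower here. With total counts the median of the 29 in this interval was -1.93, against -1.02 over all tested genes. The share of all tested genes called with total counts is not given here. Because these are bulk samples, a change in the number of cells that express a gene and a change in RNA per cell cannot be told apart.

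**Figure D1:**
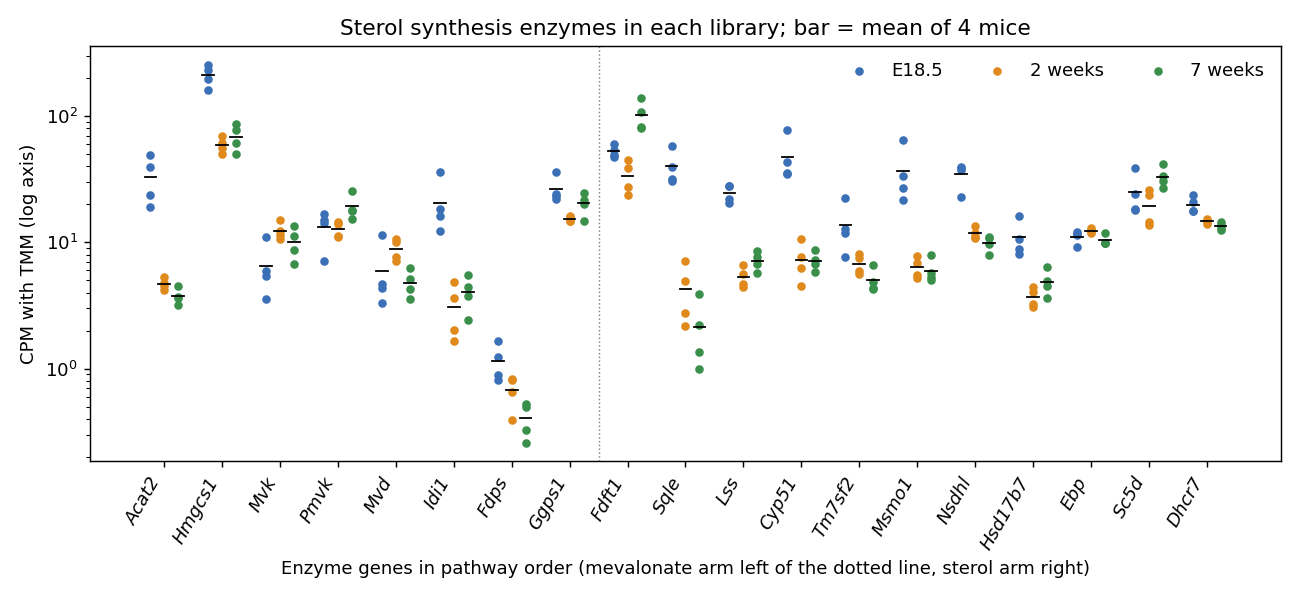
Level of the 19 synthesis enzymes (CPM with TMM, log axis) in each of the 12 libraries, in pathway order, with 1 point per mouse and a bar at the mean of 4 mice. The E18.5 points stand clear of the later ones for *Acat2*, *Hmgcs1*, *Idi1*, *Sqle*, *Lss*, *Cyp51*, *Msmo1*, *Nsdhl*, *Hsd17b7* and, more narrowly, *Dhcr7*. *Fdft1* is highest at 7 weeks.

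In the mevalonate arm 4 of 8 genes fell (*Acat2*, *Hmgcs1*, *Idi1* and *Ggps1*) and 1 rose (*Mvk*). *Acat2*, the cytosolic thiolase that joins acetyl-CoA units, stood at 23.6, 19.2, 39.6 and 49.1 CPM at E18.5, 4.18, 4.50, 4.78 and 5.37 CPM at 2 weeks, and 3.61, 3.73, 4.49 and 3.18 CPM at 7 weeks. Every E18.5 library was above every later one, with a log2 fold change to 2 weeks of -2.80 (SE 0.27, adjusted p = 1.42e-06, edgeR with Benjamini-Hochberg). Without E18.5 replicates 3 and 4, its highest libraries, it was -2.18 (adjusted p = 5.04e-06), and the change to 7 weeks went from -3.13 to -2.51 (adjusted p = 7.39e-07, edgeR). *Hmgcs1*, which makes HMG-CoA in the cytosol, was at 232, 162, 198 and 255 CPM at E18.5, at 55.4, 50.0, 69.7 and 61.6 CPM at 2 weeks, and at 86.7, 77.1, 49.6 and 60.8 CPM at 7 weeks. It was the highest of the 29 per kilobase of exon at E18.5, and its fall of 3.58-fold left the 2 later ages overlapping each other (log2 fold change -1.84, SE 0.20, adjusted p = 4.42e-06, edgeR with Benjamini-Hochberg).

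*Idi1*, the isomerase that interconverts the 2 five-carbon isoprenoid units, was at 36.0, 18.2, 12.3 and 16.1 CPM at E18.5, and its later libraries lay between 1.66 and 5.54 CPM. The fall to 2 weeks was 6.77-fold (log2 fold change -2.76, SE 0.41, adjusted p = 5.11e-05, edgeR with Benjamini-Hochberg). Of the 100-base stretches of its longest transcript, 76.9% also matched elsewhere in the genome, as did 43.0% of those of *Fdps* and 35.1% of those of *Acat2*, so the counts of these genes depend on how such reads were assigned. *Ggps1*, which makes geranylgeranyl pyrophosphate for protein prenylation, fell 1.71-fold (adjusted p = 0.00222, edgeR with Benjamini-Hochberg).

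*Mvk*, the mevalonate kinase, had the opposite sign. Its levels were 3.53, 11.1, 5.90 and 5.46 CPM at E18.5 and 11.5, 10.6, 12.2 and 15.1 CPM at 2 weeks, so that E18.5 replicate 2 lay within the later range. The log2 fold change was 0.92 (SE 0.30, adjusted p = 0.0153, edgeR with Benjamini-Hochberg). It was not past the threshold with total-count scaling (-0.017, adjusted p = 0.962), with each library's GC trend removed (0.14, adjusted p = 0.512) or without E18.5 replicates 3 and 4 (0.75, adjusted p = 0.117, edgeR). *Pmvk* and *Mvd*, the next kinase and the decarboxylase, gave log2 fold changes of -0.06 and 0.57 that did not pass the test, and *Fdps*, the farnesyl pyrophosphate synthase, gave -0.77 (SE 0.33, adjusted p = 0.0518, edgeR with Benjamini-Hochberg).

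In the sterol arm 9 of 11 genes fell from E18.5 to 2 weeks and none rose, with a median log2 fold change of -1.56. *Sqle*, the squalene epoxidase that performs the first oxygen-dependent step, fell furthest of the 29. It stood at 58.1, 39.6, 31.5 and 30.8 CPM at E18.5, at 2.78, 2.17, 7.12 and 4.91 CPM at 2 weeks, and at 3.93, 2.24, 1.35 and 0.99 CPM at 7 weeks. The fall to 2 weeks was 9.42-fold (log2 fold change -3.24, SE 0.45, adjusted p = 3.07e-05) and that to 7 weeks 18.9-fold (-4.24, SE 0.47, adjusted p = 2.65e-06, edgeR with Benjamini-Hochberg).

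*Cyp51*, the lanosterol demethylase, was at 77.5, 42.9, 34.8 and 35.7 CPM at E18.5, against 4.48 to 10.5 CPM at 2 weeks and 5.86 to 8.71 CPM at 7 weeks. *Msmo1*, which oxidises the methyl groups at carbon 4 of the sterol ring, was at 64.5, 33.5, 21.8 and 26.8 CPM at E18.5, against 5.27 to 7.78 CPM at 2 weeks. In both genes E18.5 replicate 1 was the highest and no later library reached the lowest embryonic one. Log2 fold changes to 2 weeks were -2.72 (SE 0.30, adjusted p = 4.91e-06) for *Cyp51* and -2.53 (SE 0.30, adjusted p = 9.73e-06, edgeR with Benjamini-Hochberg) for *Msmo1*.

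*Lss*, which closes the ring to lanosterol, was at 20.5, 22.2, 28.1 and 27.8 CPM at E18.5 and 4.40 to 6.57 CPM at 2 weeks (log2 fold change -2.21, SE 0.19, adjusted p = 5.37e-07, edgeR with Benjamini-Hochberg). *Nsdhl* and *Hsd17b7*, which act with *Msmo1* in removing those methyl groups, fell by 2.94-fold and 2.97-fold. Smaller falls were seen for *Tm7sf2*, a sterol reductase (2.02-fold, adjusted p = 0.00518), and *Dhcr7*, the 7-dehydrocholesterol reductase (1.35-fold, adjusted p = 0.00956, edgeR with Benjamini-Hochberg). The isomerase *Ebp* and the desaturase *Sc5d* gave log2 fold changes of 0.17 and -0.35 that did not pass the test.

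The enzymes thus spanned a wide range of change within 1 pathway. The genes that fell by more than 4-fold to 2 weeks (*Acat2*, *Idi1*, *Sqle*, *Lss*, *Cyp51* and *Msmo1*) came from both arms, and the genes whose change did not pass the test (*Pmvk*, *Mvd*, *Fdps*, *Ebp* and *Sc5d*) did so too. Those calls depended on the processing. *Fdps* was lower with total counts (-1.71, adjusted p = 0.00026) and with the GC trend removed (-1.06, adjusted p = 0.0113, edgeR). With total counts *Pmvk* (-1.01), *Ebp* (-0.76) and *Sc5d* (-1.30) were lower (adjusted p of 0.0014 or less, edgeR), where the median of all genes was -1.02. *Mvd* was lower with the GC trend removed (-0.63, adjusted p = 0.00606) and higher without E18.5 replicate 2 (1.11, adjusted p = 0.00101, edgeR). Exon counts of *Cyp51*, *Fdft1* and *Tm7sf2* may have gained or lost reads where their exons overlap those of neighbours. Of *Cyp51*, 1253 of 5937 exon bases overlap *Akap9*, and of *Fdft1* 1184 of 4779 overlap *Ctsb*, each on the other strand. Of *Tm7sf2*, 532 of 4919 overlap *Vps51* on the same strand (GENCODE vM39). The strand setting of the counting was not given in the sources used here.

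**Figure D2:**
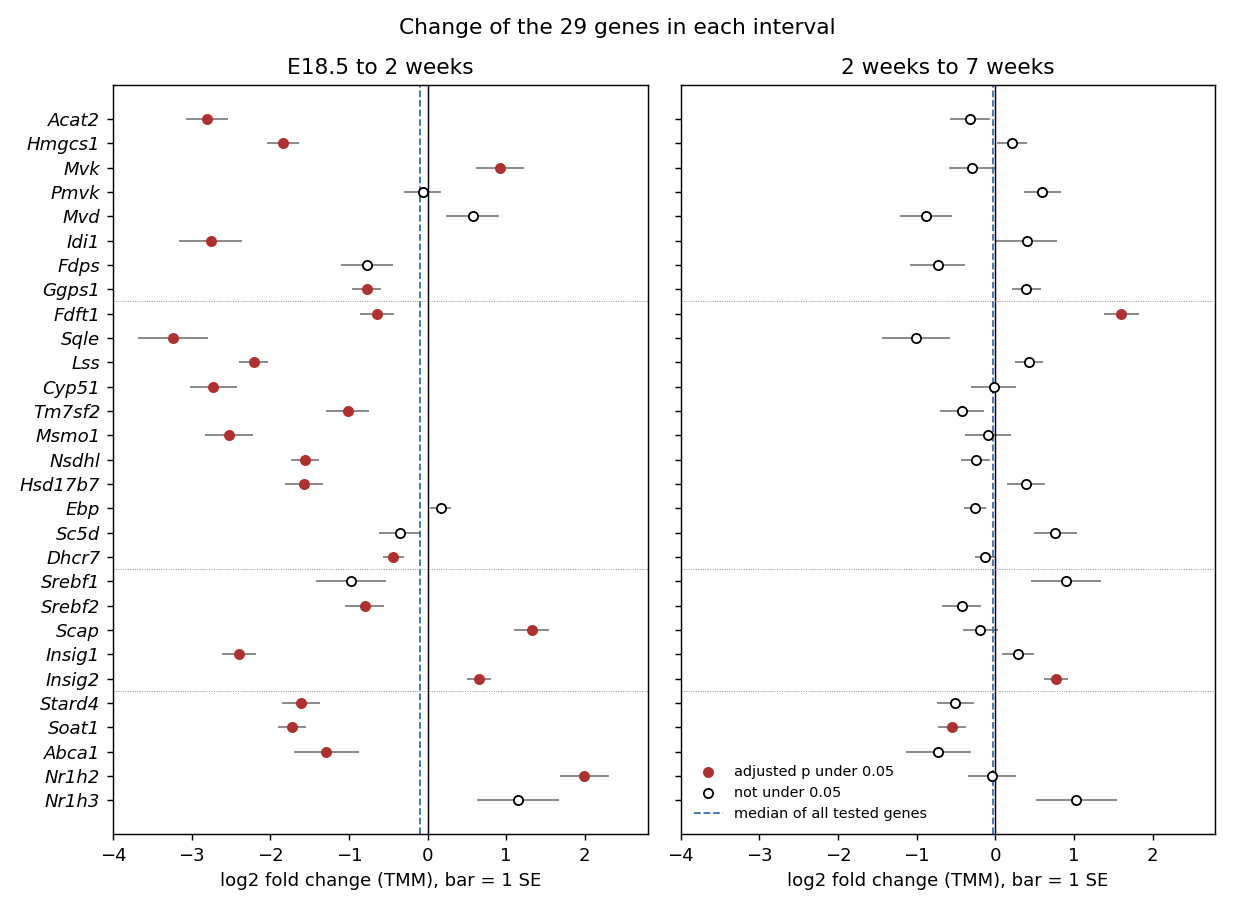
Log2 fold change of the 29 genes from E18.5 to 2 weeks (left) and from 2 to 7 weeks (right), with bars of 1 SE and the median of all tested genes as a dashed line. Filled points have an adjusted p under 0.05, which holds for 22 genes on the left and 3 on the right; dotted lines separate the 4 groups.

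Cell types other than muscle fibres also differed between E18.5 and 2 weeks. The 7 proliferating cell markers summed to 422 to 617 CPM at E18.5, 85.9 to 173 CPM at 2 weeks and 9.05 to 19.6 CPM at 7 weeks, and all 7 fell in each interval. The 7 fibroblast markers summed to 6097 to 12447, 4513 to 6228 and 1008 to 4158 CPM, with 4 of 7 falling from E18.5 to 2 weeks and 3 of 7 from 2 to 7 weeks, while all 6 muscle fibre markers rose in the first interval. The 7 macrophage markers summed to 192 to 240, 112 to 154 and 43.5 to 119 CPM. Of these, 2 fell and 1 rose from E18.5 to 2 weeks, with a median log2 fold change of -0.06. From 2 to 7 weeks 5 fell and 0 rose. None of the genes of these 4 lists was at 0 at any age. Their part in the fall of the enzymes was not tested.

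From 2 to 7 weeks few of the 29 genes passed the test. Log2 fold changes that did not pass it reached -1.01 in *Sqle* and 1.03 in *Nr1h3*. Only *Fdft1* and *Insig2* rose and only *Soat1* fell at an adjusted p under 0.05 among the 29, against 13.5% of all tested genes higher and 13.9% lower (edgeR with Benjamini-Hochberg). The median log2 fold change of the 29 was -0.09, against -0.03 over all genes. Scaling to total counts gave 2 members higher and 10 lower, with a median of -0.42 for the 29 and -0.38 over all tested genes. *Soat1*, which esterifies cholesterol for storage, was at 6.50 to 8.96 CPM at 2 weeks and 3.86 to 6.38 CPM at 7 weeks (log2 fold change -0.55, SE 0.18, adjusted p = 0.0356). The call was lost on leaving out any of 2 weeks replicates 1, 2 and 4 or 7 weeks replicates 2, 3 and 4, with adjusted p values from 0.0585 to 0.106 (edgeR).

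*Fdft1*, the squalene synthase at the branch into the sterol arm, was the only member past the threshold in both intervals with opposite signs. Its levels were 59.7, 47.8, 49.1 and 54.2 CPM at E18.5, 23.8, 27.7, 39.1 and 44.6 CPM at 2 weeks, and 80.3, 81.7, 140 and 108 CPM at 7 weeks. The 7 weeks libraries lay above all others, and the 2 weeks libraries below all others. The rise from 2 to 7 weeks was 3.04-fold (log2 fold change 1.60, SE 0.22, adjusted p = 0.000266, edgeR with Benjamini-Hochberg) and remained past the threshold with total-count scaling (1.27, adjusted p = 0.000352) and with the GC trend removed (1.56, adjusted p = 0.000283). The fall to 2 weeks was less secure (log2 fold change -0.64, SE 0.22, adjusted p = 0.0193), with adjusted p values of 0.0732 and 0.065 on leaving out 2 weeks replicate 1 or 2 and of 0.0542 without E18.5 replicates 3 and 4 (edgeR).

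Per kilobase of exon, *Fdft1* made up 9.15 to 9.82% of the summed level of the 19 enzymes at E18.5, 12.1 to 18.0% at 2 weeks and 25.8 to 42.5% at 7 weeks. *Hmgcs1* made up 29.9 to 40.2%, 22.5 to 25.5% and 13.7 to 25.3%. The summed level itself, with TMM scaling, was 103 to 137 CPM per kilobase at E18.5, 40.8 to 52.8 at 2 weeks and 62.0 to 68.9 at 7 weeks. The ages did not overlap with that scaling, and the sum with total counts is not given here. Between 2 and 7 weeks the mean of *Fdft1* went from 7.07 to 21.5 CPM per kilobase. The median log2 fold change of the 19 enzymes in that interval was -0.09. Of all 29 genes, the order of levels per kilobase at E18.5 opened with *Hmgcs1* (40.2 ± 7.69), *Insig1* (11.6 ± 2.78), *Fdft1* (11.0 ± 1.14) and *Stard4* (9.89 ± 3.14, SD, n = 4), of which those after *Hmgcs1* did not differ beyond their spread. At 7 weeks it opened with *Fdft1* (21.5 ± 5.88), *Insig2* (15.8 ± 1.49) and *Hmgcs1* (13.0 ± 3.14, SD, n = 4), each within about the spread of its neighbour. Taking the length of the longest transcript in place of all exons put *Insig2* (31.8 CPM per kilobase) above *Fdft1* (25.0) at 7 weeks.

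Whether the change differed between the intervals was tested directly, as the change from E18.5 to 2 weeks minus that from 2 to 7 weeks. It differed for 15 of the 29 genes, against 38.4% of all tested genes, with a negative contrast in 13 and a positive one in *Scap* and *Nr1h2* (edgeR with Benjamini-Hochberg). The enzymes held 11 of the 13, among them *Lss* (-2.64, SE 0.33, adjusted p = 9.64e-05), *Fdft1* (-2.24, SE 0.40, adjusted p = 0.00104) and *Acat2* (-2.48, SE 0.46, adjusted p = 0.00138). *Insig1* and *Soat1* were the other two. With the GC trend removed *Soat1* (-0.64, adjusted p = 0.0546) and *Ggps1* (-0.39, adjusted p = 0.0874, edgeR) were no longer past the threshold. The positive contrast of *Scap* (1.51) was 0.92 with total counts (adjusted p = 0.0666) and 0.11 with the GC trend removed (adjusted p = 0.687), and that of *Nr1h2* (2.04) was 0.48 with the GC trend removed (adjusted p = 0.192, edgeR). For *Sqle* the contrast of -2.23 (SE 0.76, adjusted p = 0.0329) lost its call with the replicate number as a block (adjusted p = 0.0608), and it did so too on leaving out E18.5 replicate 1, any of 2 weeks replicates 1, 2 and 4, or 7 weeks replicate 1 or 2 (adjusted p from 0.0533 to 0.104, edgeR).

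Over the whole period from E18.5 to 7 weeks, 17 of the 29 were lower and 5 higher, against 37.1% of all tested genes lower and 34.3% higher (edgeR with Benjamini-Hochberg). *Fdft1*, *Scap*, *Insig2*, *Nr1h2* and *Nr1h3* were the 5 that rose with TMM, and with total-count scaling none of the 5 was past the threshold and *Fdft1* and *Scap* turned negative (-0.32 and -0.15). With total counts 23 members were lower and 0 higher at an adjusted p under 0.05 in edgeR, and at 7 weeks 36.4 to 37.8% of all counts came from the 20 most abundant genes of the library, against 13.7 to 16.1% at E18.5. With that scaling the median log2 fold change was -2.51 for the 29 and -1.36 over all tested genes. *Fdps*, at 0.26 to 1.64 CPM the lowest of the 29 at every age per kilobase, fell 2.84-fold over the period (adjusted p = 0.00135, edgeR with Benjamini-Hochberg). Of its 100-base stretches, 43.0% also matched elsewhere in the genome, so its level and rank depend on how such reads were assigned.

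Among the SREBP regulators the INSIG paralogs went apart with TMM scaling. *Insig1*, itself a known SREBP target, was at 54.7, 40.1, 58.2 and 73.1 CPM at E18.5, at 8.47, 9.11, 12.7 and 12.7 CPM at 2 weeks, and at 16.5, 13.2, 10.5 and 12.4 CPM at 7 weeks. *Insig2*, whose expression is not driven by SREBP in the same way, was at 42.3, 31.3, 30.6 and 34.7 CPM at E18.5, at 45.3, 51.0, 59.2 and 63.7 CPM at 2 weeks, and at 103, 99.3, 86.4 and 85.4 CPM at 7 weeks. *Insig1* fell in the first interval only, and *Insig2* was higher at each later age with no overlap between ages.

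The fall of *Insig1* to 2 weeks was 5.26-fold (log2 fold change -2.40, SE 0.22, adjusted p = 9.29e-07), and *Insig2* rose by 0.66 (SE 0.15, adjusted p = 0.00162) and then by 0.77 on the log2 scale (SE 0.15, adjusted p = 0.00242, edgeR with Benjamini-Hochberg). With total-count scaling the first step of *Insig2* was -0.28 (adjusted p = 0.0768) and the later one 0.43 (adjusted p = 0.0262, edgeR). The ratio of *Insig2* to *Insig1* per kilobase of exon does not depend on the scaling of the library. It was 0.526 ± 0.133 at E18.5, 4.24 ± 0.338 at 2 weeks and 5.94 ± 0.715 at 7 weeks (SD, n = 4 at each age), with every library of an age outside the range of the others. With the longest transcript as length, *Insig2* stood at 11.8 and *Insig1* at 12.7 CPM per kilobase at E18.5, so the size of the gap before birth depends on the transcript length taken.

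*Srebf2*, which encodes the SREBP form most tied to sterol synthesis, was at 38.7, 77.9, 40.7 and 41.4 CPM at E18.5, at 22.9, 19.4, 37.8 and 34.0 CPM at 2 weeks, and at 20.9, 20.9, 21.3 and 21.7 CPM at 7 weeks. It fell 1.74-fold to 2 weeks (log2 fold change -0.80, SE 0.25, adjusted p = 0.0107, edgeR with Benjamini-Hochberg), and the log2 fold change was -1.998 with the GC trend removed (adjusted p = 4.3e-06, edgeR). The 2 weeks libraries fell into a lower and a higher pair, and the 7 weeks libraries lay close together. *Scap*, which escorts SREBP, moved the other way, from 6.39, 15.8, 13.6 and 12.4 CPM at E18.5 to 28.7, 28.1, 28.7 and 35.3 CPM at 2 weeks and 21.6 to 29.1 CPM at 7 weeks. Its log2 fold change to 2 weeks of 1.32 (SE 0.22, adjusted p = 0.000168) was not past the threshold with total-count scaling (0.38, adjusted p = 0.138) or with the GC trend removed (0.22, adjusted p = 0.102, edgeR).

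*Srebf1*, the form most tied to fatty acid synthesis, did not pass the test with TMM scaling in any of the comparisons between ages, with a log2 fold change to 2 weeks of -0.98 (adjusted p = 0.0667, edgeR with Benjamini-Hochberg). Its E18.5 libraries ranged widely, at 8.49, 32.2, 64.1 and 52.1 CPM, against 18.2 to 22.0 CPM at 2 weeks and 23.7 to 54.9 CPM at 7 weeks. E18.5 replicates 3 and 4, in which the adipocyte markers were high, had the highest *Srebf1* of that age. Without them its log2 fold change to 2 weeks was -0.031 (adjusted p = 0.957), and that from E18.5 to 7 weeks went from -0.079 to 0.87 (adjusted p = 0.108, edgeR). The call to 2 weeks depended on the processing. It was lower with total-count scaling (-1.93, adjusted p = 0.00146), with the GC trend removed (-2.11, adjusted p = 0.000305), with upper-quartile scaling (-1.11, adjusted p = 0.0382) and without E18.5 replicate 1 (-1.31, adjusted p = 0.00166, edgeR), and in DESeq2 (-1.02, adjusted p = 0.0316). To 7 weeks it was lower with total counts (-1.39, adjusted p = 0.0106) and with the GC trend removed (-0.95, adjusted p = 0.0325, edgeR).

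**Figure D3:**
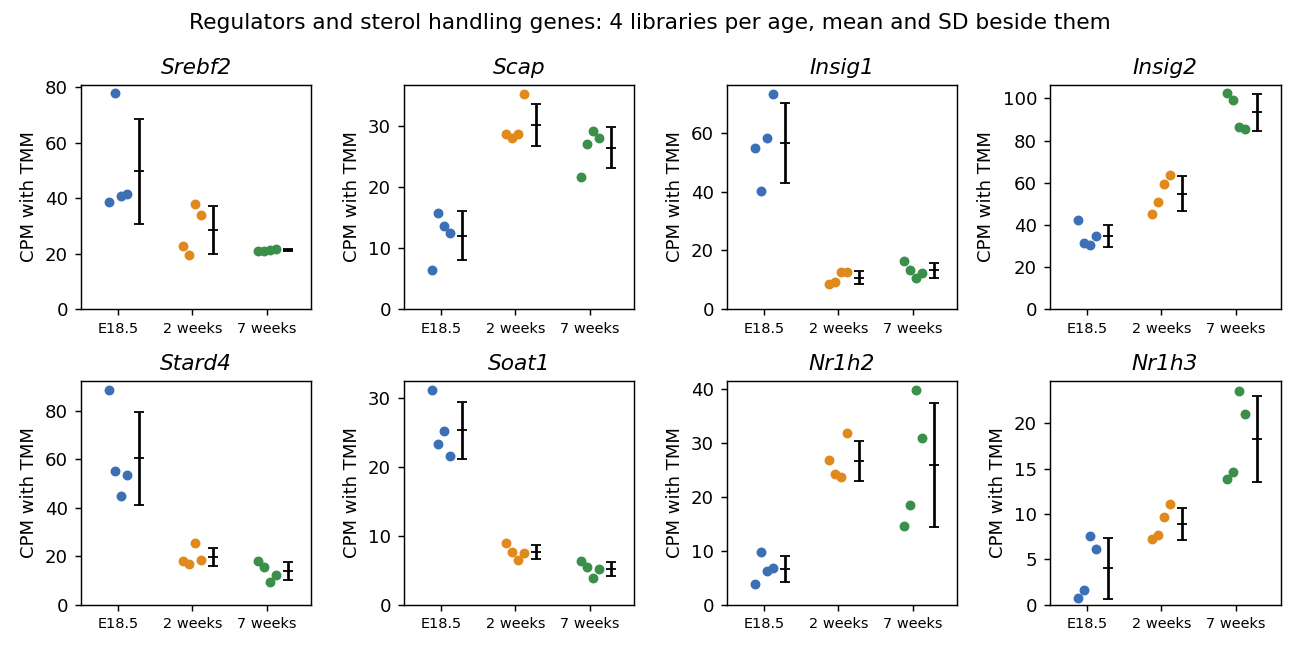
Levels of 8 regulators and sterol handling genes (CPM with TMM, from 0) at each age, with 4 points per age for the 4 libraries and the mean with SD beside them. *Insig1* falls from 40.1 to 73.1 CPM at E18.5 to 16.5 CPM or less later, while *Insig2* climbs to 85.4 to 103 CPM at 7 weeks.

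*Stard4* and *Soat1*, of sterol transport and storage, both fell to 2 weeks. *Stard4*, a cytosolic sterol carrier and SREBP target, was at 88.6, 55.2, 44.8 and 53.7 CPM at E18.5, 17.0 to 25.5 CPM at 2 weeks and 9.54 to 18.2 CPM at 7 weeks (log2 fold change to 2 weeks -1.61, SE 0.24, adjusted p = 6e-05, edgeR with Benjamini-Hochberg). *Soat1* was at 31.2, 23.3, 25.2 and 21.7 CPM at E18.5 and fell 3.30-fold to 2 weeks (log2 fold change -1.72, SE 0.18, adjusted p = 3.25e-06). For both genes every E18.5 library was above every later one.

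From E18.5 to 7 weeks both LXR receptors rose with TMM scaling while *Abca1*, the cholesterol exporter that LXR is known to induce, fell. *Nr1h2*, which encodes LXRβ, went from 3.89, 9.76, 6.33 and 6.85 CPM at E18.5 to 26.9, 24.3, 23.8 and 31.9 CPM at 2 weeks and 14.6 to 39.8 CPM at 7 weeks. The rise to 2 weeks was 3.98-fold (log2 fold change 1.99, SE 0.32, adjusted p = 9.59e-05) and stayed past the threshold with total-count scaling (1.06, adjusted p = 0.00561) and with the GC trend removed (0.74, adjusted p = 0.00104, edgeR). No embryonic library reached the lowest later one.

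*Nr1h3*, which encodes LXRα, was at 0.741, 1.63, 7.54 and 6.18 CPM at E18.5, at 7.26, 7.73, 9.64 and 11.1 CPM at 2 weeks, and at 13.9, 14.6, 23.5 and 21.0 CPM at 7 weeks. It was 4.53-fold higher at 7 weeks than at E18.5 (log2 fold change 2.18, SE 0.53, adjusted p = 0.00224), and its rise to 2 weeks of 1.15 did not pass the test (adjusted p = 0.0659, edgeR with Benjamini-Hochberg). Without E18.5 replicates 3 and 4 the change to 7 weeks was 3.94 on the log2 scale (adjusted p = 3.83e-06, edgeR). *Abca1* was at 50.3, 36.4, 101 and 102 CPM at E18.5, at 50.7, 35.4, 17.0 and 15.7 CPM at 2 weeks, and at 19.2, 18.1, 10.4 and 24.1 CPM at 7 weeks. Neighbouring ages overlapped, while E18.5 and 7 weeks did not, and the log2 fold change to 2 weeks was -1.29 (SE 0.41, adjusted p = 0.0139, edgeR with Benjamini-Hochberg).

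Both genes moved with the adipocyte markers at E18.5. *Adipoq*, which encodes the fat cell hormone adiponectin, was at 6.37, 7.74, 213 and 183 CPM in the 4 E18.5 libraries and at most 3.25 CPM later, and *Plin1*, a lipid droplet protein, at 2.90, 3.78, 92.9 and 97.1 CPM and at most 1.84 CPM later. None of the 7 adipocyte markers was at 0 in any library. Without E18.5 replicates 3 and 4, which was tried only once the data had been seen, the rise of *Nr1h3* to 2 weeks was 2.90 on the log2 scale (adjusted p = 4.87e-05) and the change of *Abca1* was -0.55 (adjusted p = 0.288, edgeR). Over the whole period *Abca1* then went from -2.01 to -1.27 (adjusted p = 0.018, edgeR). The number of members that fell to 2 weeks was then 17 and the number that rose 4.

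**Figure D4:**
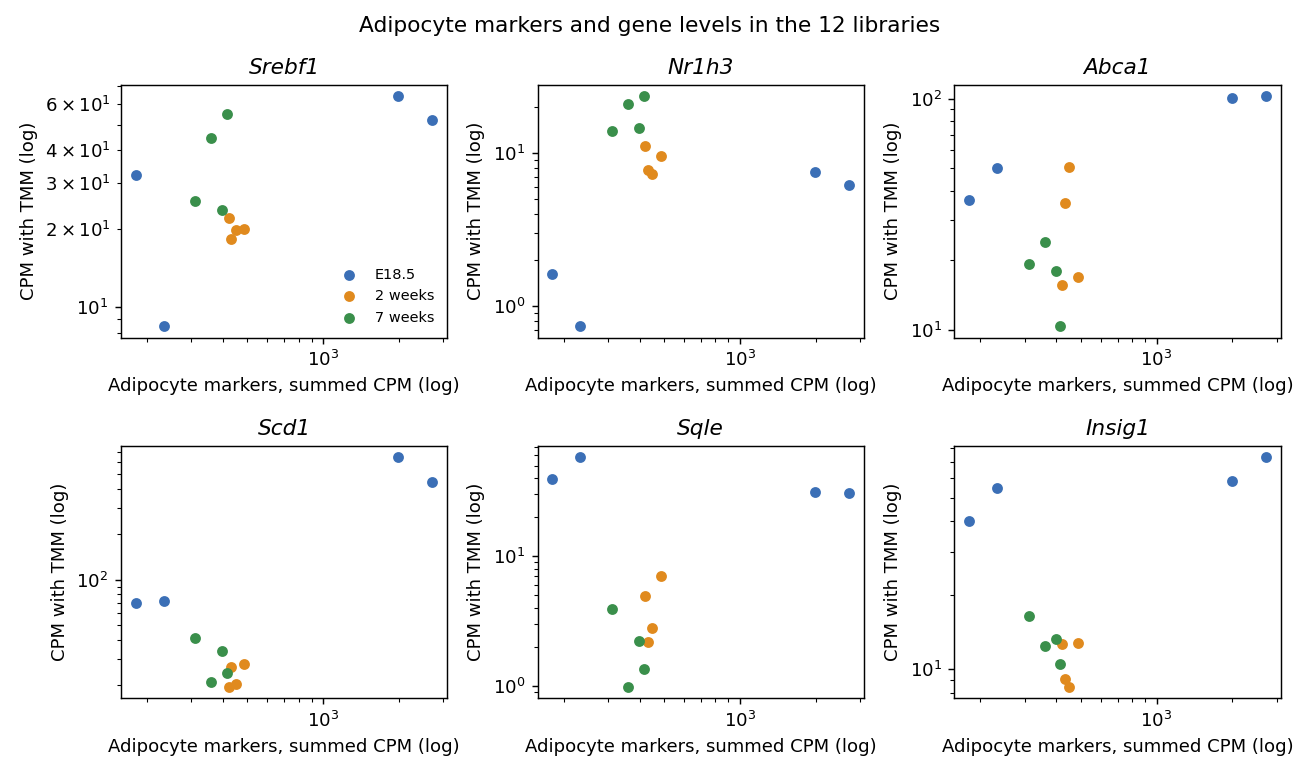
Level of 6 genes (CPM with TMM, log axis) against the sum of the 7 adipocyte markers (CPM, log axis) in the 12 libraries, coloured by age. E18.5 replicates 3 and 4, at 1987 and 2712 CPM of markers, have the highest *Abca1* and *Scd1* of all and the highest *Srebf1* of their age. *Sqle* was higher in the other E18.5 libraries, while *Insig1* was higher in replicates 3 and 4 (58.2 and 73.1 against 54.7 and 40.1 CPM).

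Within an age the enzymes did not all vary alike. At 2 weeks, 16 of the 19 enzymes were above the age mean in replicates 3 and 4 and 3 of 19 in replicates 1 and 2, with median log2 deviations of 0.25 and 0.20 against -0.16 and -0.23. *Sqle* was at 7.12 and 4.91 CPM in the first pair and 2.78 and 2.17 CPM in the other, and *Idi1* at 4.87 and 3.66 against 1.66 and 2.02 CPM. *Abca1* had the reverse order, and *Srebf2* the same order as the enzymes. The 8 Schwann cell markers summed to 509 and 184 CPM in replicates 1 and 2 and to 164 and 100 CPM in replicates 3 and 4, and the 6 red blood cell markers to 458 and 719 against 138 and 139 CPM. The TMM factors were 0.946 and 0.922 in replicates 1 and 2 and 0.824 and 0.810 in replicates 3 and 4. A lower factor raises the CPM of every gene of a library. The part of these markers and of the scaling in this spread was not tested.

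At E18.5 the counts of enzymes above the age mean were 11, 10, 6 and 7 of 19 in replicates 1 to 4, and at 7 weeks 12, 11, 7 and 5. At 7 weeks *Sqle* was highest in replicate 1 (3.93 CPM) and lowest in replicate 4 (0.99 CPM), while *Fdft1* was highest in replicate 3. The 6 epidermis markers summed to 52.5 CPM in E18.5 replicate 2 and at most 8.81 CPM elsewhere.

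**Figure D5:**
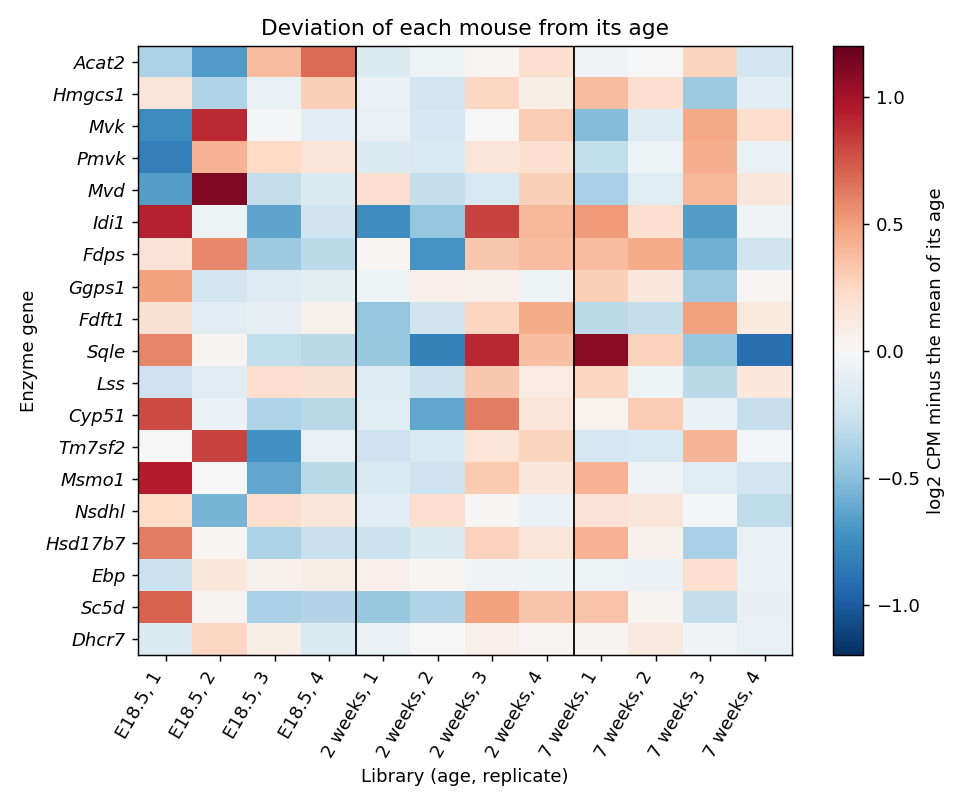
Deviation of each of the 19 enzymes (rows) in each library (columns) from the mean of its age, as log2 CPM on a colour scale from -1.2 to 1.2, with ages divided by black lines. At 2 weeks most rows are blue in replicates 1 and 2 and red in replicates 3 and 4; at E18.5 and 7 weeks colours are mixed within each library.

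Other genes around the pathway were read from wider lists. Of 16 fatty acid synthesis and SREBP1 target genes, 10 fell and 5 rose from E18.5 to 2 weeks (median log2 fold change -1.31, edgeR with Benjamini-Hochberg), or 11 and 4 with total-count scaling (median -2.25). Over all tested genes 34.2% fell and 31.5% rose, with a median of -0.09, or -1.02 with total counts. The stearoyl-CoA desaturase *Scd1* fell by 3.72 on the log2 scale (SE 0.62), from 72.6, 70.2, 648 and 444 CPM to 19.5 to 27.5 CPM, with its highest values in the E18.5 libraries rich in adipocyte markers. The elongase *Elovl6* fell by 3.57 (SE 0.32), from 35.7 to 64.0 CPM down to 2.77 to 5.16 CPM, and again by 1.24 from 2 to 7 weeks. In the other direction, *Lpin1* (2.32, SE 0.52) and *Acacb* (2.17, SE 0.47), a phosphatidate phosphatase and the acetyl-CoA carboxylase at the mitochondrion, rose to 2 weeks. In the later interval 2 of the 16 rose (*Me1*, 1.62, and *Acss2*, 0.57) and 3 fell, or 1 and 5 with total counts, against 13.5% of all tested genes higher and 13.9% lower with TMM, the largest falls being in *Elovl6* and the desaturase *Fads2* (-0.83).

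Of 11 genes of SREBP processing and sterol sensing, 3 rose and 4 fell to 2 weeks (median -0.24), or 1 and 8 with total counts (median -1.17). All tested genes gave 31.5% higher and 34.2% lower, and medians of -0.09 and -1.02. *Erlin1* and *Erlin2*, which encode membrane proteins of the endoplasmic reticulum that restrain SREBP, fell by 1.76 and 1.68 on the log2 scale (SE 0.16 and 0.14), and *Aup1*, of the machinery that degrades proteins of that membrane, rose by 1.33 (SE 0.22). Between 2 and 7 weeks 4 rose and 0 fell, or 0 and 3 with total counts, where 13.5% of all genes rose and 13.9% fell with TMM, and the largest rises with TMM were *Rnf139* (0.78) and *Paqr3* (0.66).

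The 14 genes of the isoprenoid branches, which lead to coenzyme Q, dolichol and prenylated proteins, gave 6 rises and 3 falls to 2 weeks (median 0.30) with TMM and 2 rises and 9 falls with total counts (median -0.63). The share over all genes was 31.5% for rises and 34.2% for falls with TMM, and the medians were -0.09 and -1.02. *Pdss2*, of coenzyme Q synthesis, rose by 1.72 (SE 0.15) and *Rabggta*, a subunit of the Rab prenyltransferase, by 1.61 (SE 0.22). The falls were *Idi2*, *Dhdds* (-0.49) and *Srd5a3* (-0.47), of which *Idi2* was at 0.107 to 0.665 CPM at E18.5 and had no counts in any later library. *Idi2* thus passed the filter on low counts only through E18.5, so its place among the falls is not independent of that filter. The later interval gave 3 rises, led by *Fnta* (0.64) and *Coq2* (0.63), and a fall of *Srd5a3* (-0.89), against 0 rises and 3 falls with total counts and against 13.5% of all genes higher and 13.9% lower with TMM.

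Of 16 genes of sterol uptake, transport and storage, 7 rose and 2 fell to 2 weeks with TMM (median 0.36), and 2 rose and 8 fell with total counts (median -0.57). Among all tested genes the shares with TMM were 31.5% and 34.2%, and the medians -0.09 and -1.02. *Nceh1*, a cholesteryl ester hydrolase, rose by 2.02 (SE 0.24) and *Cyp27a1*, the mitochondrial sterol 27-hydroxylase, by 1.84 (SE 0.18), and the falls were *Gramd1c* (-1.12) and *Npc2* (-0.69). In the later interval 5 rose and 4 fell, or 2 and 6 with total counts, beside 13.5% and 13.9% of all genes with TMM. *Cyp27a1* rose again by 1.33 (SE 0.17) to 93.7 to 157 CPM, and *Vldlr*, a lipoprotein receptor, rose by 1.29 (SE 0.20) to 358 to 410 CPM, whereas *Gramd1b* (-1.50) and *Scarb1* (-0.93) fell.

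Of 11 LXR partners and targets, 6 rose and 3 fell to 2 weeks (median 1.14), or 2 and 5 with total counts (median 0.23). Of all tested genes 31.5% rose and 34.2% fell with TMM, and their medians were -0.09 and -1.02 with the respective scalings. *Pltp*, the phospholipid transfer protein, rose by 4.17 (SE 0.27), from 0.672 to 1.71 CPM up to 19.5 to 29.2 CPM, while *Ncoa6* (-0.82) and *Arl4c* (-0.75) fell. Between 2 and 7 weeks 3 rose and 2 fell, or 2 and 3 with total counts, against all-gene shares of 13.5% and 13.9% with TMM. The LXR partners *Rxra* and *Rxrg* rose by 1.25 (SE 0.26) and 1.11 (SE 0.20), and *Arl4c* and the exporter *Abcg1* fell by 1.91 and 0.92 on the log2 scale.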

How the data were processed

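RNA of TA muscle was sequenced as paired 100-base reads from polyA-selected libraries (TruSeq Stranded mRNA), and the authors deposited raw counts of reads per Ensembl gene made with HTSeq 0.6.1p1 after STAR 2.5.3a and cutadapt 1.10. The processing notes name mm10 and the paper's methods GRCm39; the annotation and strand setting of the counting were not given in the sources used here. No column or row was left out of the counts.

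Genes were named by Ensembl ID from GENCODE vM39 (51477 of 55450 IDs), which also gave exon lengths, GC content and overlaps. Promoters are from RefSeq in GRCm38.p6. The members and lists were chosen with earlier results of these data known. All 29 members could be named, and of each wider list the 2 largest rises and 2 largest falls past the threshold per interval; other markers are named for their levels. Some genes that this rule would name are not reported here.

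Counts were tested with edgeR 4.0.16 (TMM, filterByExpr, glmQLFit and glmQLFTest, all 12 libraries, age as the only term), with Benjamini-Hochberg adjustment over 19276 genes and a threshold of 0.05. filterByExpr removed 36174 genes. The SE is the log2 fold change divided by the root of F. CPM values use TMM library sizes, which had factors from 0.667 to 1.77. Level per kilobase is CPM divided by the length of all exons. Transcripts were cut into 100-base stretches every 20 bases and matched to the genome with minimap2 2.31. The biological coefficient of variation was 0.279. On simulated counts of E18.5 against 2 weeks (18104 genes, 200 changed 2-fold), 65 were recovered with 1 false call. The simulation gave every gene the same dispersion and changed few genes, whereas many changed in the data. Its recovery therefore does not give the share of 2-fold changes missed in the data. Precision is also limited by counting error where counts are low.

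Replicates of an age differed by 31.2 to 524 in chi-square per degree of freedom, so no library was a repeat of another. Nothing in the labels ties the replicates to separate litters, so p-values measure the spread between these libraries. Alternatives changed the scaling (total counts, upper quartile, or TMM leaving out 37 mitochondrially encoded genes and the 20 most abundant ones), the filter (none, or 10 counts or more per library), the tool (DESeq2 1.42.0), the libraries (only the 8 of a pair of ages, or each of the 12 left out), the terms (a replicate block), the GC trend (removed by lowess with span 0.3) and the length (longest transcript). The fit without E18.5 replicates 3 and 4 was added once the data had been seen.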

Additional observations from a re-analysis of the deposited data

Results flagged for a closer look

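A library was singled out when its gap to the nearest of the other 3 of its age exceeded Dixon's 95% critical value for 4 values, relative to the range. This was the case in 6 of 87 sets of 4 libraries (29 genes at 3 ages), where chance alone gives about 1 in 20, or 4.35. Of the 6, 3 were in E18.5 replicate 2. *Srebf2* was at 77.9 CPM there, against 38.6 to 41.4 CPM in the others, and *Mvd* at 11.5 CPM against 3.34 to 4.68 CPM. *Nsdhl* was lowest there, at 22.9 CPM against 37.3 to 39.5 CPM. *Ggps1* was at 36.1 CPM in E18.5 replicate 1, against 22.1 to 23.99 CPM. *Scap* was at 35.3 CPM in 2 weeks replicate 4, against 28.1 to 28.7 CPM, and *Ebp* at 11.9 CPM in 7 weeks replicate 3, against 9.86 to 9.91 CPM.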

How the results depend on the processing

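The counts of members that fell from E18.5 to 2 weeks (18) and to 7 weeks (17) stayed within 1.5 times under every alternative. With total-count scaling 1 member rose to 2 weeks, 0 rose to 7 weeks, and 10 fell from 2 to 7 weeks. That scaling also turned *Mvk* (-0.017), *Mvd* (-0.36), *Ebp* (-0.76) and *Insig2* (-0.28) to 2 weeks, *Hmgcs1* (-0.12) and *Insig1* (-0.038) from 2 to 7 weeks, and *Mvk* (-0.65), *Pmvk* (-0.75), *Fdft1* (-0.32), *Sc5d* (-0.86) and *Scap* (-0.15) to 7 weeks. With the GC trend removed 2 members rose to 2 weeks and 5 fell from 2 to 7 weeks, and the sign turned for *Mvd* (-0.63), *Ebp* (-0.24) and *Sc5d* (0.040) to 2 weeks, for *Hmgcs1* (-0.043), *Scap* (0.10) and *Nr1h2* (0.27) from 2 to 7 weeks, and for *Mvk* (-0.025) to 7 weeks. From 2 to 7 weeks, 2 members fell with DESeq2 or upper-quartile scaling, 0 without the filter, and 6 rose and 2 fell with only the 8 libraries compared. Without E18.5 replicates 3 and 4, 4 rose and 0 fell from 2 to 7 weeks, and *Pmvk* to 2 weeks (0.084) and *Srebf1* to 7 weeks (0.87) changed sign. Leaving out 1 library at a time gave 2 to 6 rises (6 without E18.5 replicate 1, 5 without 7 weeks replicate 3) and 0 to 2 falls from 2 to 7 weeks. It also gave ranges across 0 for *Cyp51* (-0.19 to 0.22), *Msmo1* (-0.25 to 0.024) and *Nr1h2* (-0.32 to 0.16) from 2 to 7 weeks, *Pmvk* (-0.27 to 0.074) to 2 weeks, and *Mvd* (-0.51 to 0.23) and *Srebf1* (-0.42 to 0.26) to 7 weeks. With the replicate number as a block, 5 members rose and 18 fell to 2 weeks, and *Srebf1* to 7 weeks turned to 0.042; the labels share only a number, since same-numbered libraries correlated from -0.281 to 0.514. The causes of these shifts were not tested.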
